A study of Mus musculus with 6 samples.

Results

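Granins and the enzymes that process prohormones form the regulated peptide-secreting machinery of neurons and endocrine cells. The 10 genes described here, of 55335 in the count table, were taken by name: the prohormone convertases Pcsk1 and Pcsk2, the convertase chaperone Scg5, the carboxypeptidase Cpe, the amidating enzyme Pam, and the granins Chga, Chgb, Scg2, Scg3 and Vgf. The family was chosen by the fold change of Pcsk1, among the largest falls in SOHU against naive libraries. All values of that contrast, calls included, are therefore given for these genes as a description that supports nothing, and no p-value is printed for a member. Each of the 10 was matched to 1 row by Ensembl identifier, and all 10 passed the filter on low counts.

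RNA was sequenced from an anti-HA pull-down of mouse retina that is labelled as retinal ganglion cells, which send their axons through the optic nerve. All animals were wild-type C57BL/6 mice aged 10 weeks. The 3 naive libraries carry only that word as their condition, although the labels' treatment text on the oil is the same for all 6 samples, and the 3 SOHU libraries came from eyes with silicone oil-induced ocular hypertension, in which oil in the anterior chamber raises eye pressure, 1 week after the oil was injected. The labels name neither the protein that carried the HA tag nor the promoter that drove it, and separate animals behind the replicates are not stated in them. The p-values below thus measure the spread between these libraries alone, which may be technical.

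Peptide precursors are sorted with granins into dense-core vesicles, cut by convertases after paired basic residues, trimmed by carboxypeptidase E and, for many peptides, amidated at the C terminus. Granins are acidic proteins that help to form the granule core and are themselves cut into peptides. In the retina, amacrine cells and some ganglion cell types release neuropeptides.

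The libraries held 21691354 to 26824919 counted reads. Levels are given as CPM, that is, counts divided by the library's size after TMM scaling, which corrects for library composition. The 22 ganglion cell markers were all detected, but RNA of other cells was present in both groups. The summed level of the ganglion cell marker list was 5274 to 8848 CPM in naive and 2750.5 to 3796 CPM in SOHU libraries. The 18 amacrine and horizontal cell markers summed to 4827 to 5619.9 and 2629 to 3332 CPM, and the 17 Müller glia and astrocyte markers to 15755 to 20632 and 28561 to 56649 CPM. Abundant genes weigh most in such sums. Mean levels in naive and SOHU libraries were 2157 and 877 CPM for Calb2, 5086 and 13706 for Apoe, and 4083 and 11306 for Clu. The log2 fold change was below 0 in 17 of the 18 amacrine and horizontal markers and in 0 of the 17 Müller glia and astrocyte markers. The 18 rod markers summed to 7469 to 9048 and 7154 to 10907 CPM. In bulk RNA, fewer cells of a type and less RNA per cell cannot be told apart.

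Promoter sequences are shown first, so that the members can be compared in them for the cAMP response element (CRE). This site is bound by CREB and related factors and is long known in granin genes. Shared control of the members was not tested. RefSeq promoters on GRCm38.p6, the mm10 assembly, were matched by symbol for 8 of the 10 genes. Cpe and Vgf had no entry. Each spans 250 bases before the start site to 50 after it. The palindrome TGACGTCA was found in 3 of the 8, Pcsk1, Chgb and Scg2, beside 1.79% of 32851 promoter entries of the same length and 3.38% of the 12172 tested genes with an entry. Its first base lay 78, 72 and 68 bases before the RefSeq start in Pcsk1, Chgb and Scg2. In the gene models of the counts these genes begin further upstream, at 75089826, 132781278 and, on the minus strand, 79440120. The palindromes of Chgb and Scg2 therefore lie within the span of the counted gene, and that of Pcsk1 lies before it. The core TGACG, read on either strand and contained in each palindrome on both strands, was found in 7 of the 8, beside 20.8% of all entries and 33.2% of the tested genes with an entry. Pam was the member without it. Most tested genes with an entry lacked the core, so nothing is read from its absence in Pam. Cpe and Vgf could not be examined. Pam had 2 overlapping entries, both without the core. The entries differed in base composition, from 49.3% G and C in Pcsk1 to 76.3% in Pcsk2 and the upstream Pam entry. The other Pam entry had 77.3%. Variants of the palindrome were not searched, so a gene without it may still hold a CRE. The 150 bases before the RefSeq start are printed 5′ to 3′ on each gene's own strand, with the core and the palindrome in capitals. Sequences are shown for the genes with the palindrome, for Chga with the core but not the exact palindrome, and for the upstream Pam entry with neither. They lie at chr13:75089707-75089856 (plus strand) for Pcsk1, chr2:132781492-132781641 (plus) for Chgb, chr1:79440027-79440176 (minus) for Scg2, chr12:102554791-102554940 (plus) for Chga and chr1:98095647-98095796 (minus) for Pam.
Pcsk1: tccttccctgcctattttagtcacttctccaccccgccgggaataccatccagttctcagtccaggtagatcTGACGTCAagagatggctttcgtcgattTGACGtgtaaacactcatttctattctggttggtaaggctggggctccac
Chgb: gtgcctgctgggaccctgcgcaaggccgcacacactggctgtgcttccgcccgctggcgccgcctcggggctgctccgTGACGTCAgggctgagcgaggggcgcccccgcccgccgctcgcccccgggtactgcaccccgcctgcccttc
Scg2: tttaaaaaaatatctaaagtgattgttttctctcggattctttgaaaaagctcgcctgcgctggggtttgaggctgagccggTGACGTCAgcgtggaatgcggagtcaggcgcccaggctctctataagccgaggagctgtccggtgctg
Chga: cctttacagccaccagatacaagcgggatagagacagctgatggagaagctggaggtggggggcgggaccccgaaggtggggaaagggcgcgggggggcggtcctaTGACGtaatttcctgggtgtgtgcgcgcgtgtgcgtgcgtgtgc
Pam: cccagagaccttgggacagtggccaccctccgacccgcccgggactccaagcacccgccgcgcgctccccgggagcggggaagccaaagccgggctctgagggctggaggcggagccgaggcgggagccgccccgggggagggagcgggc

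These matches describe letters in a window and are not measured binding. Genes with the palindrome and genes without it were both among those that fell in SOHU. Over the tested genes with a promoter entry, 5.08% of the 767 called lower and 2.48% of the 1087 called higher held the palindrome, beside 3.38% of all. For the core these shares were 35.5%, 26.7% and 33.2%.

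The members spanned a wide range per transcript length in the naive libraries. On the TPM scale, computed from the counts and the deposited exon lengths, Cpe was highest at 1682 ± 41.4 TPM, followed by Scg2 at 1527 ± 16.9, Scg5 at 985 ± 71.7, Chgb at 633 ± 33.1, Chga at 336 ± 17.0 and Scg3 at 143 ± 5.37 TPM (SD, n = 3 each). Only 48 of the 17687 tested genes had a higher naive TPM than Cpe, and 56 had a higher one than Scg2, whereas 5792 lay above Pam, 6454 above Pcsk2, 6607 above Vgf and 9673 above Pcsk1. Pam at 24.3 ± 2.51, Pcsk2 at 20.2 ± 2.98 and Vgf at 19.4 ± 2.25 TPM were lower, and Pcsk1 was lowest at 8.66 ± 1.64 TPM. The ranges of neighbouring genes in this order did not overlap, except between Pam and Pcsk2 and between Pcsk2 and Vgf. The same order of means was found in the SOHU libraries. In the naive libraries Scg5 was 45.5- to 54.7-fold above Pcsk2, the convertase it serves, on the TPM scale.

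**Figure D1:**
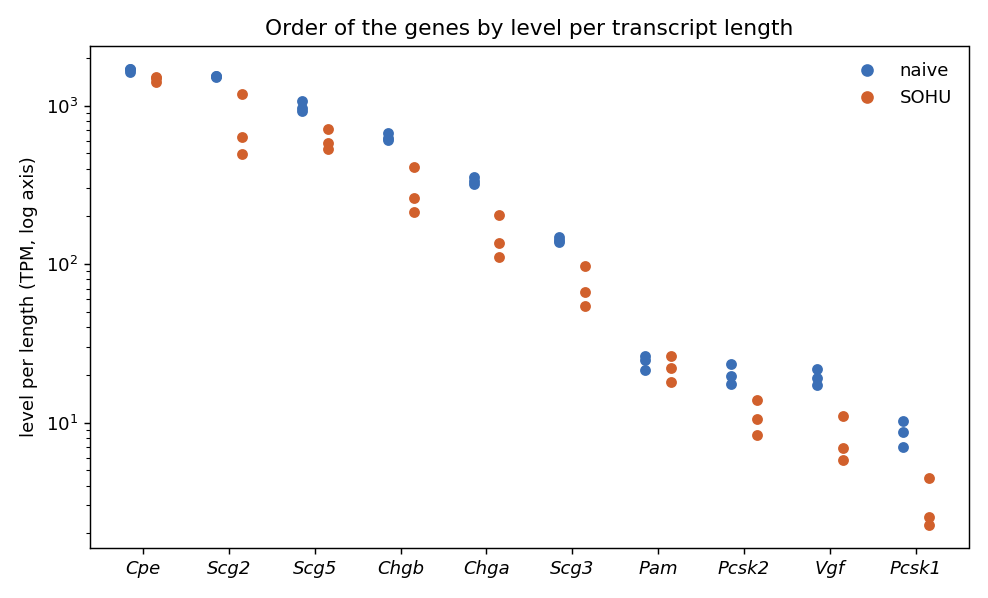
Level per transcript length (TPM, log axis) of the 10 genes, ordered by naive mean; each point is 1 library, naive in blue and SOHU in orange. Cpe, Scg2 and Scg5 lead and Pcsk1 is lowest at 8.66 TPM in naive and 3.09 TPM in SOHU libraries.

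In SOHU libraries 8 of the 10 genes were called lower, and none was called higher. Across all genes 1049 of 17687 (5.93%) were called lower and 1418 (8.02%) higher by edgeR's quasi-likelihood test at a Benjamini-Hochberg adjusted p under 0.05. Because the family was chosen with this contrast known, nothing is read from its count. The SOHU libraries all lay below the naive libraries in 9 of the 10, beside 19.7% of all tested genes. The median log2 fold change of the 10 genes was -0.97, beside 0.01 for all tested genes. The calls needed most of the libraries: edgeR called 0 of the 10 without naive replicate 1, naive replicate 3 or SOHU replicate 2. Over all genes the same omissions left 0, 0 and 336 calls, with 3919, 4251 and 4621 genes at an unadjusted p under 0.05. DESeq2 and limma-voom, run on all 6 libraries, each called the same number of members lower, 8.

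Pcsk1 encodes a convertase that makes the early cuts in many prohormones. Its level was 19.9, 15.9 and 13.0 CPM in naive replicates 1 to 3 and 4.53, 4.75 and 8.21 CPM in SOHU replicates 1 to 3. The groups did not overlap, and SOHU replicate 3 was the highest of its group. The mean went from 16.3 ± 3.47 to 5.83 ± 2.06 CPM (SD, n = 3 each), a 2.79-fold fall with a log2 fold change of -1.48 (SE 0.27, 95% interval -2.10 to -0.87). These values rest on 295 to 518 reads in naive and 106 to 202 reads in the SOHU libraries. The gene (ENSMUSG00000021587.5) lies on mm10 chromosome 13, from 75089826 to 75134861 on the plus strand, and shares no exon base with another gene of the files. Over all 17687 tested genes 96 had a lower fold change. Among 903 genes called lower, without overlap between the groups, with at least 3 in mean log2 CPM and a symbol that is no predicted name, Pcsk1 ranked 3, after Nos1 (-1.51) and Fam163a (-1.50) and before Nefm (-1.44).

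Pcsk2, the other neuroendocrine convertase, acts later in the granule and makes many of the smaller peptides. It had 64.1, 45.2 and 51.5 CPM in naive and 23.7, 28.3 and 36.1 CPM in SOHU libraries. The groups did not overlap. Its log2 fold change was -0.87 (SE 0.19, 95% interval -1.30 to -0.44), and its interval overlapped that of Pcsk1. The ratio of Pcsk1 to Pcsk2 on the TPM scale was 0.439, 0.496 and 0.358 in naive and 0.270, 0.237 and 0.321 in the SOHU libraries, and the groups did not overlap. Pcsk1 was chosen for its fall, so nothing is read from this ratio. Pcsk2 shares 520 exon bases with the antisense transcript Pcsk2os1, whose count was 4.71% of that of Pcsk2.

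Scg5 encodes the chaperone that Pcsk2 needs to become active. Its level was 579, 491 and 485 CPM in naive and 298, 305 and 363 CPM in SOHU libraries. All SOHU values were lower, by 1.61-fold (log2 fold change -0.69, SE 0.14). This was the smallest change among the 8 called genes. The Scg5 to Pcsk2 ratio on the TPM scale was 45.5, 54.7 and 47.5 in naive and 63.5, 54.5 and 50.7 in the SOHU libraries, which overlapped.

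Cpe and Pam, the enzymes that finish the peptides, were not called. Cpe removes the basic residues left by the convertases. It had 1539.8, 1451 and 1419 CPM in naive and 1406, 1231 and 1278 CPM in SOHU libraries. The naive values lay just above the SOHU values, with a log2 fold change of -0.17 (SE 0.13, 95% interval -0.46 to 0.12). Pam, the only enzyme known to amidate peptides in mammals, had 88.7, 96.1 and 105 CPM in naive and 76.2, 88.7 and 103 CPM in SOHU libraries. The groups overlapped, with a log2 fold change of -0.12 (SE 0.15, 95% interval -0.44 to 0.21). These intervals leave room for falls of moderate size and do not show that the levels were equal. They did not overlap the intervals of Chga, Chgb, Scg3, Vgf or Pcsk1. As the other members fell, Cpe went from 31.0, 31.4 and 31.4% of the summed TPM of the 10 genes in the naive libraries to 51.1, 44.9 and 36.1% in the SOHU libraries. Pam shares 188 exon bases with B230216N24Rik, whose count was 1.77% of that of Pam.

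**Figure D2:**
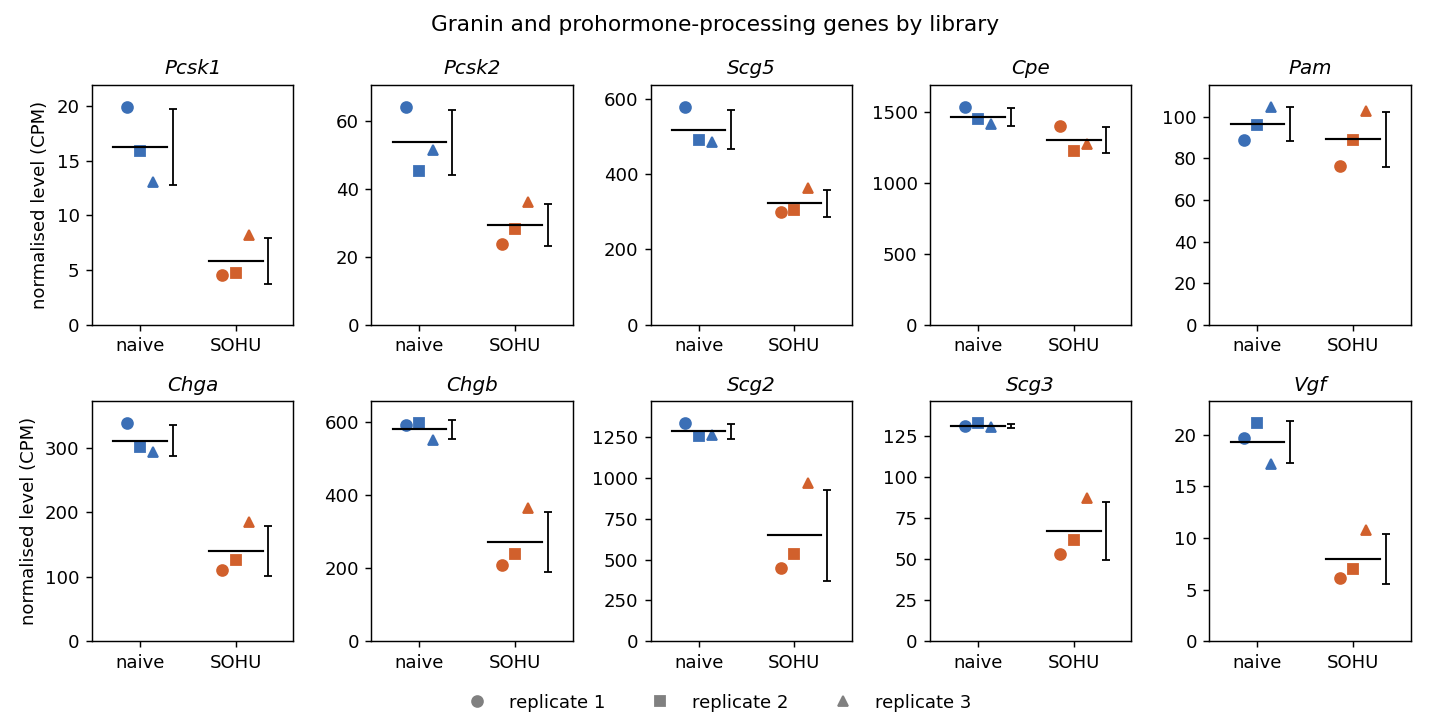
Normalised level (CPM, axes from 0) of each gene in naive (blue) and SOHU (orange) libraries; symbols mark the replicate, horizontal lines the mean and bars the SD of 3 libraries. In 9 of the 10 panels the SOHU points lie below all naive points, and Pam overlaps.

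The 5 granins were all called lower. Vgf, whose precursor yields several neuropeptides and is induced by neurotrophins, had 19.7, 21.1 and 17.1 CPM in naive and 6.15, 6.95 and 10.7 CPM in SOHU libraries. The groups stood apart by 2.43-fold (log2 fold change -1.28, SE 0.23, 95% interval -1.80 to -0.76), from 387 to 512 reads in naive and 148 to 264 in the SOHU libraries. Chga, the founding member of the family and a driver of granule formation in endocrine cells, had 338, 301 and 293 CPM in naive and 109.6, 126 and 184 CPM in SOHU libraries. It fell 2.22-fold (-1.15, SE 0.19). Its relative Chgb had 593, 597 and 551 CPM in naive and 209.7, 239.6 and 364 CPM in SOHU libraries, a 2.14-fold fall (-1.10, SE 0.20). The proportion of the pair overlapped between the groups: Chgb was 1.77- to 2-fold above Chga on the TPM scale in naive and 1.92- to 1.99-fold in the SOHU libraries.

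Scg2, the precursor of secretoneurin, was the most abundant granin. It had 1336, 1260.0 and 1261 CPM in naive and 446, 537 and 967 CPM in SOHU libraries. The naive libraries lay close together, whereas SOHU replicate 3 stood well above the other SOHU libraries. Its log2 fold change of -0.98 (SE 0.25) had a 95% interval of -1.55 to -0.41, the widest interval among the granins. Without SOHU replicate 3 it was -1.37, and without SOHU replicate 1 it was -0.78. It was not called without SOHU replicate 1 or naive replicate 2, where edgeR called 7 members each. Scg3, which binds Chga and tethers it to the granule membrane, had 131, 133 and 130.1 CPM in naive and 53.0, 61.7 and 87.1 CPM in SOHU libraries. It fell 1.95-fold (-0.96, SE 0.18), and its naive SD of 1.28 CPM was small beside the SOHU SD of 17.7 CPM.

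The 8 called genes ordered the SOHU libraries alike: replicate 1 was lowest and replicate 3 highest in each. Müller glia and astrocyte markers were highest in SOHU replicate 1 and lowest in replicate 3, amacrine and horizontal markers the reverse, and ganglion cell markers were also highest in replicate 3. In SOHU replicates 1 to 3 the Müller glia and astrocyte list summed to 56649, 36070.4 and 28561 CPM, the amacrine and horizontal list to 2629, 2756 and 3332 CPM, and the ganglion cell list to 3109, 2750.5 and 3796 CPM. Their part in the result was not tested. The summed TPM of the 10 genes was 5497, 5433 and 5208 in naive and 2955, 3119 and 4147 in the SOHU libraries.

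**Figure D3:**
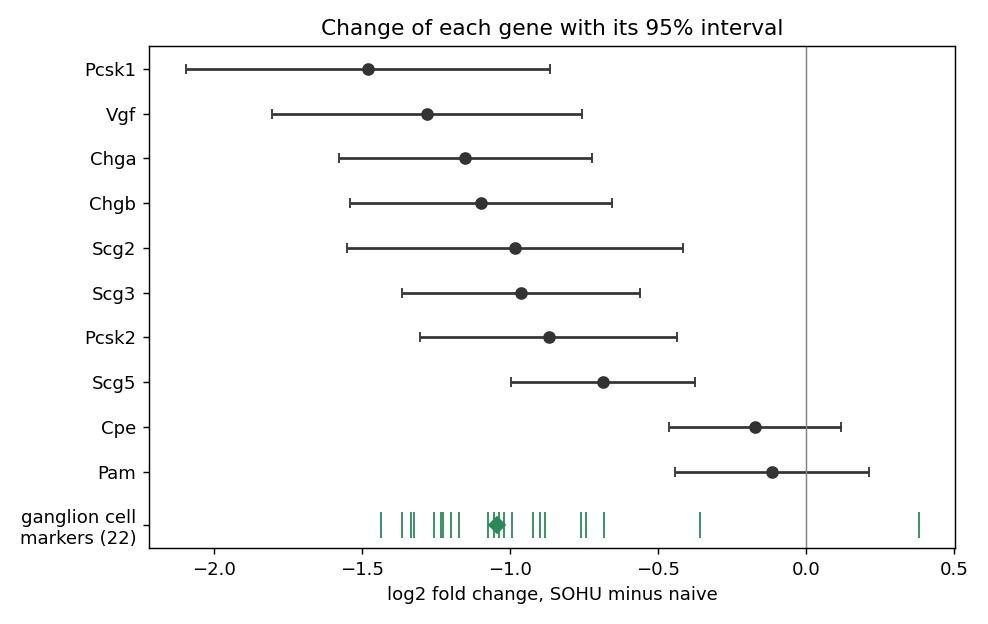
Log2 fold change (SOHU minus naive) of each gene with its 95% interval from edgeR; green ticks are the 22 ganglion cell markers and the diamond their median of -1.05. The intervals of Cpe and Pam cross 0, and that of Pcsk1 covers most markers.

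These falls were set beside those of the ganglion cell markers. Pcsk1, chosen for its fall, differed from the lowest marker, Nefm (-1.44, SE 0.24), by less than the error of either. The median log2 fold change of those 22 markers was -1.05, and 18 were called lower. Of the 22, 0 had a lower fold change than Pcsk1, 4 than Vgf, 9 each than Chga and Chgb, 14 each than Scg2 and Scg3, 17 than Pcsk2 and 19 than Scg5. For Cpe and Pam the number was 21, every marker except Atoh7. Amacrine and horizontal cell markers, from other peptide-releasing neurons, had a median of -0.74, with 5 of 18 called lower, and Müller glia and astrocyte markers a median of 1.04, with 9 of 17 called higher. Which of these cells the granin RNA came from was not tested.

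The members were also set against the mean log2 level of the ganglion cell markers in the same library. On the log2 scale Pcsk1 stood at -2.94, -2.57 and -3.08 relative to that mean in the naive libraries and at -3.55, -3.43 and -3.16 in the SOHU libraries. Its SOHU values all lay below its naive values on this relative scale, with a narrow gap between SOHU replicate 3 and naive replicate 3. The gene was chosen for its fall, so nothing is read from this. Cpe stood at 3.32, 3.94 and 3.68 in naive and at 4.70, 4.56 and 4.11 in the SOHU libraries, and Pam at -0.79, 0.02 and -0.08 and at 0.50, 0.77 and 0.47. Both were higher in every SOHU library than in every naive library. The other 7 members overlapped between the groups, as for Chga at 1.13, 1.67 and 1.40 in naive and 1.02, 1.27 and 1.32 in the SOHU libraries. The marker mean itself was 7.27, 6.57 and 6.79 log2 CPM in naive and 5.76, 5.7 and 6.21 in SOHU libraries. A gene that keeps its level therefore rises on this scale, and nothing is read from the rise of Cpe and Pam. The share of all tested genes that separate on this scale was not computed.

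**Figure D4:**
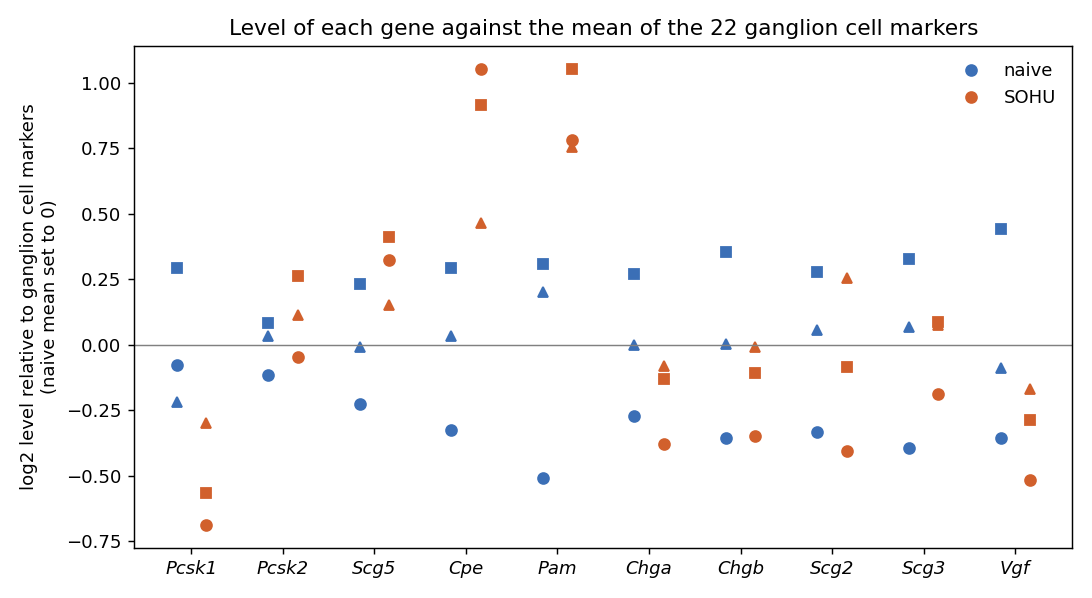
Log2 level of each gene minus the mean log2 level of the 22 ganglion cell markers in the same library, with the naive mean of each gene set to 0; circles, squares and triangles are replicates 1, 2 and 3. The SOHU points (orange) lie below the naive points for Pcsk1 and above them for Cpe and Pam, while the groups overlap in the other 7 genes (naive in blue).

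The genes whose pattern was most like that of Pcsk1 were found by the root mean square difference of centred log2 CPM over the 6 libraries, among 10451 genes. Nos1, the neuronal nitric oxide synthase, was closest with a difference of 0.102, followed by Fdft1 (0.146), Fstl4 (0.153), the tubulin gene Tubb4a (0.159) and the membrane skeleton gene Add2 (0.168). Nos1 had 24.4, 16.03 and 15.9 CPM in naive and 4.82, 5.29 and 9.67 CPM in SOHU libraries, so that it shared the high naive replicate 1 and the high SOHU replicate 3. Within the groups, the mean log2 CPM of the ganglion cell markers was also highest in naive replicate 1 (7.27) and SOHU replicate 3 (6.21). The measure includes the group difference for which Pcsk1 was chosen, so nothing is read from the likeness. Fdft1 shares 2319 exon bases with Ctsb on the opposite strand, which has far more reads, and is uncertain. Among the members Vgf was nearest to Pcsk1 (0.175, with 6 genes closer) and Chga next (0.209, with 19 closer), and Pam was farthest (0.751).

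Genes outside the family were compared through 5 lists of related function, with edgeR's adjusted p over all genes. Beside each list stands the share of all tested genes called in either direction, 13.9%. Of 8 other proprotein convertases and their inhibitor, 0 were called by edgeR and 3 had an unadjusted p under 0.05, while limma-voom called 0 and DESeq2 1 lower and 1 higher. Their median log2 fold change was -0.02. Pcsk5 went from 7.11 ± 0.31 to 11.7 ± 3.42 CPM (0.72, adjusted p = 0.0668) and Pcsk6 from 89.3 ± 4.16 to 62.8 ± 17.8 CPM (-0.51, adjusted p = 0.119). Pcsk1n, a granin-like gene whose product inhibits Pcsk1, had 258 ± 28.1 CPM in naive and 213 ± 43.1 CPM in SOHU libraries (SD, n = 3 each), and the groups overlapped (-0.28, SE 0.17, adjusted p = 0.293).

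In the list of peptide trimming and modification, 3 of 13 tested genes rose and 1 fell, with a median of 0.24. Cpd, a carboxypeptidase of the trans-Golgi related to Cpe, rose from 13.9 ± 1.32 to 22.8 ± 1.82 CPM (SD, n = 3 each; 1.64-fold, SE 0.16 on the log2 scale, adjusted p = 0.023). The lysosomal aminopeptidase gene Ctsh rose 2.68-fold (adjusted p = 0.0214) and Cpxm1, a carboxypeptidase-like gene, 2.82-fold (adjusted p = 0.0357). The Cpxm1 values were 124, 45.1 and 44.7 CPM in SOHU replicates 1 to 3, and without SOHU replicate 1 its log2 fold change was 0.82 instead of 1.495. Fam20c, the Golgi kinase of secreted proteins, fell 1.47-fold (adjusted p = 0.0498). With no filter on low counts the adjusted p was 0.158 for Ctsh and 0.222 for Cpxm1, and with a replicate block it was 0.0704 for Fam20c. Of 15 tested peptide-degrading enzymes, 1 rose, the neurolysin gene Nln (1.69-fold, adjusted p = 0.039; adjusted p = 0.0541 with a replicate block), and 0 fell, with 2 of the list at an unadjusted p under 0.05 and 0 called lower by DESeq2 or limma-voom. In that list Prep (-0.47, adjusted p = 0.0981), Thop1 (-0.36, adjusted p = 0.195) and Ace (-0.63, adjusted p = 0.244) did not pass. The peptidase list had a median of -0.13.

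Genes of dense-core vesicle biogenesis, transport and release had 8 of 38 lower and 1 higher, 23.7% of the list, with a median of -0.39. Many of them also serve synaptic vesicles. Stx1a, the plasma membrane SNARE, fell from 35.8 ± 5.18 to 17.1 ± 3.12 CPM (SD, n = 3 each), or -1.07 as a log2 difference (SE 0.18, adjusted p = 0.0124). Ica1, a gene of granule maturation, fell by 1.05 on the log2 scale (adjusted p = 0.0142) and the vesicle GTPase gene Rab3a by 0.91 (adjusted p = 0.015). Other called genes, named after their values were seen, were Syt5, Rph3a, Cadps, which primes granules for release, and Cyb561, which supplies reducing power for amidation inside the granule, all lower, and the sorting receptor gene Sorl1, which was higher by 0.48 (SE 0.13, adjusted p = 0.0378; 0 genes higher with a replicate block). DESeq2 called 14 lower.

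Among 33 tested neuropeptide and neurotrophin precursors, 5 fell and 2 rose (21.2%), with a median of -0.65. Cartpt, the CART peptide precursor, fell from 430.1 ± 91.1 to 215 ± 56.0 CPM (SD, n = 3 each), or -1.003 as a log2 difference (SE 0.22, adjusted p = 0.0199). Tac2, the neurokinin B precursor, fell from 118 ± 11.6 to 58.7 ± 13.3 CPM (-1.01, SE 0.17, adjusted p = 0.0124), and Sst, the somatostatin precursor of amacrine cells, from 16.6 ± 1.12 to 8.57 ± 1.28 CPM (-0.96, SE 0.18, adjusted p = 0.0155). Adcyap1 (-1.12) and Igf1 (-0.91) also fell. The endothelin precursor gene Edn2 rose from 2.45 ± 1.68 to 13.1 ± 3.12 CPM (2.42, SE 0.45, adjusted p = 0.0144; 3.10 without naive replicate 2 and 2.01 without naive replicate 1), and Calca, which encodes calcitonin and CGRP, rose from 8.78 ± 1.74 to 22.2 ± 10.8 CPM (1.34, SE 0.31, adjusted p = 0.0257). Adcyap1, Igf1 and Calca were named after their values were seen.

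These list calls also changed in number when single libraries were left out. Over the 5 lists, 14 genes were called lower and 7 higher with all 6 libraries, and 41 had an unadjusted p under 0.05. In edgeR 0 were called without naive replicate 1 or naive replicate 3, where 35 and 37 had an unadjusted p under 0.05. The numbers were 6 lower and 2 higher without naive replicate 2, 3 lower and 0 higher without SOHU replicate 2, and 28 lower and 10 higher without SOHU replicate 3.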

How the data were processed

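Raw counts of reads per gene were deposited for 6 libraries, singly and as 1 joint table, which was used here. The submitters' processing notes name featureCounts, HISAT2, HISAT, Trim Galore, bcl2fastq 2.17 and MultiQC, with build mm10; their settings, the annotation release and the use of strand were not given in the sources used here, so reads of antisense partners cannot be separated. Symbols for 55154 of 55335 genes came from GENCODE M21. From the counts, 17687 genes passed filterByExpr, TMM factors (0.943 to 1.04) were computed and groups were compared with edgeR 4.0.16 in R 4.3.3 (robust quasi-likelihood, group only). DESeq2 1.42.0 and limma 3.58.1 (voom) were alternatives. The fit was tested on simulated data. Log2 CPM used a prior count of 2. TPM used the deposited exon lengths.

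The members and lists were chosen with earlier results of these data known. Besides the 10 members, the genes named are the 5 most like Pcsk1 and, by smallest p, up to 4 of each list, except those said to be named after their values were seen. Some genes that this rule names are not reported here. No library was a copy of another of its group (chi-square per degree of freedom 12.6 to 79).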

Additional observations from a re-analysis of the deposited data

How the results depend on the processing

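All 10 members kept the sign of their change under each of the 11 alternatives, among them log2 fold changes of -1.80 to -1.32 for Pcsk1 and -0.24 to -0.12 for Cpe. The number of members called lower was 8 with DESeq2 size factors, no filter, DESeq2, limma-voom and a replicate block, and 0 to 8 when 1 library was left out, with 0 called higher throughout. Genes called lower over all genes numbered 1049, but 1675 without a filter and 1731 with DESeq2; leaving out 1 library gave 0 to 1845 lower and 0 to 2051 higher. Without a filter the lists had 2 convertases, 2 trimming, 13 vesicle and 9 precursor genes lower. DESeq2 called 1 convertase lower and 1 higher, 2 trimming genes lower and 5 higher, and 14 vesicle genes lower. With the replicate block the trimming list had 0 lower, the peptidase list 0 higher and the vesicle list 0 higher, where all genes gave 2070 calls beside 2467. Leaving out 1 library gave, lower and higher, 0 to 1 and 0 to 1 convertases, 0 to 2 and 0 to 4 trimming genes, 0 and 0 to 1 peptidases, 0 to 15 and 0 to 1 vesicle genes, and 0 to 10 and 0 to 3 precursors. The cause of these moves was not tested. Libraries with the same replicate number deviated together with correlations of 0.163, 0.251 and 0.004. For libraries with different numbers the correlations were -0.28 to 0.0946. These values do not settle whether the numbers mark pairs. The main fit did not take them as pairs, and the replicate block did. The naive level order kept 10 places on the CPM per kb scale and 8 to 10 places when 1 naive library was left out. Pcsk1 and Vgf were the members with the fewest reads. The SE of Vgf (0.23) was nevertheless below that of Scg2 (0.25), and the part of depth was not tested.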
